A study of Mus musculus with 15 samples.

Results

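The 38 genes described here encode the nucleolar machinery that makes ribosomes, together with Myc, a transcription factor known for driving many of them. They were chosen by name, and each was read through its probe set of highest mean level across the 15 arrays. Of the 38 genes, 36 had a probe set that the platform annotation pairs with that gene symbol and no other, out of 12393 such genes in all, and all 36 passed the filter on low levels and were tested among 7909 genes. Dkc1, the pseudouridine synthase of box H/ACA particles, and Nob1, a nuclease of the small subunit, were not analysed here.

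RNA from cultured neural stem cells of the subventricular zone was hybridised to Affymetrix mouse arrays; this zone is the germinal layer that lines the lateral ventricles. The cells came from female C57Bl6/J mice aged 6 months and were expanded over repeated passages as neurospheres, floating colonies of dividing cells. There were 3 groups of 5 arrays. Undifferentiated cells had the growth factors bFGF and EGF in their medium, and the other groups were taken 12 h or 24 h after a move to poly-D-lysine in 5% serum with no growth factors. The loss of growth factors, the serum and the new surface came together, so their effects cannot be told apart. No label ties a sample to a mouse or culture of its own, so the p-values reflect the spread among samples as given, and that spread may be technical.

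The nucleolus forms around the ribosomal RNA genes, which RNA polymerase I copies into a long precursor. Box C/D particles methylate that precursor and box H/ACA particles turn selected uridines into pseudouridine, while assembly factors fold and cut it into the RNAs of the small and large ribosomal subunits. Dividing cells, stem and progenitor cells among them, are known for large nucleoli and high expression of this machinery.

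Some arrays do not sit with their groups. Titles and descriptions carry different array codes in 13 of 15 samples, and for 8 the description would give another group; groups here follow the titles. Grouped by the file codes instead, limma called 0 of the 36 genes at either time, and 0 of all 7909 genes. Replicates 3 and 4 at 12 h were the most alike of all array pairs, with an SD of 0.15 between them on the log2 scale against 0.277 for the next pair, and they stood near the undifferentiated arrays for most of the 36 genes. The title codes end in 1 of 3 suffixes, called A, B and C below, whose meaning the labels do not give; both of these arrays carry suffix B. For 12 h, counts of genes called and many of the differences are given with all 5 arrays. They are given again with the 3 left when these arrays are set aside. Both arrays had the highest medians of the 36 genes at 12 h, so leaving them out lowers the 12 h estimates by construction. Results without them show how far the counts rest on these arrays and are no further evidence of a fall. The 3' to 5' ratio of beta-actin, a measure of RNA integrity, averaged 1.95 ± 0.238 in undifferentiated cells, 2.36 ± 0.148 at 12 h and 2.78 ± 0.365 at 24 h (SD, n = 5 each).

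All 11 neural stem and progenitor markers on the array were above the filter. None of 10 microglial, 8 endothelial or 8 leukocyte markers was, and of 9 pericyte and fibroblast markers only Pdgfrb passed. Both ependymal markers and 4 of 7 mature neuron markers passed as well, and the mean level of the ependymal markers ran from 1.25 to 1.56 on the log2 scale in undifferentiated arrays, 1.51 to 2.16 at 12 h and 1.84 to 2.61 at 24 h. At 24 h Foxj1, an ependymal marker, rose by 1.51 ± 0.25 (limma adjusted p = 0.000649). Pdgfrb, a pericyte marker, averaged -0.244 in undifferentiated cells, 0.429 at 12 h and 1.723 at 24 h, a difference of 1.97 ± 0.23 at 24 h. Rsph1, the other ependymal marker, averaged 0.434, 0.463 and 0.775. Pdgfrb and Rsph1 thus passed the filter level of 0.512 only through their 24 h arrays, and no p-value is given for them. Of the 11 stem and progenitor markers 3 were lower and 2 higher at 24 h, beside 19.4% lower and 12.7% higher among all tested genes. Only 3 of the 11 estimates were below 0, and their median was 0.379. The 4 markers with the smallest p-values are given next. Nes, which encodes the filament protein nestin, fell by 2.05 ± 0.37, the Notch target Hes1 by 1.72 ± 0.25 and the receptor gene Egfr by 1.08 ± 0.24 (limma adjusted p = 0.000975, 0.0002955 and 0.00328), while Msi1, which encodes an RNA-binding protein of progenitors, rose by 1.31 ± 0.22 (limma adjusted p = 0.0006875). The part of these markers and of other cells in the results below was not tested.

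Because the 36 genes are set beside each other as a group, stretches of their promoters are shown first. Each runs from 60 bases before to 30 bases after an annotated start in the RefSeq table for GRCm38.p6, 5′ to 3′ on the gene's strand. Capitals mark CACGTG, the E-box that Myc and related proteins are known to bind, or its variant CACGCG, which reads CGCGTG on the other strand. The first 5 promoters hold a match near the start, and the last 3 belong to genes with some of the lowest p-values or largest falls and hold none in this stretch.
Nhp2, chr11:51619713-51619802, plus strand: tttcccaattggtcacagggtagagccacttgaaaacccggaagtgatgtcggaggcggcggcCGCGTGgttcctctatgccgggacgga
Noc2l, chr4:156235955-156236044, plus strand: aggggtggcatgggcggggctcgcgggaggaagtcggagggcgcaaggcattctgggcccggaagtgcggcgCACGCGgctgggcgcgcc
Ppan, chr9:20888115-20888204, plus strand: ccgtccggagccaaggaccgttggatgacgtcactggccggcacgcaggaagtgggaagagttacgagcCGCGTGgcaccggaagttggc
Nip7, chr8:107056817-107056906, plus strand: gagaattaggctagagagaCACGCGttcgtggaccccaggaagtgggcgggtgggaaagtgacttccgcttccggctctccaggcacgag
Wdr43, chr17:71616155-71616244, plus strand: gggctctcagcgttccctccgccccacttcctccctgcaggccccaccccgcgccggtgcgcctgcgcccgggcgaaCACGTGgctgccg
Nop56, chr2:130274352-130274441, plus strand: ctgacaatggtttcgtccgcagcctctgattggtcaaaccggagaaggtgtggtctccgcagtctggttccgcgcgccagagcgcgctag
Nop58, chr1:59684946-59685035, plus strand: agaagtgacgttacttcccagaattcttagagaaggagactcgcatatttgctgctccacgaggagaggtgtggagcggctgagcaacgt
Gnl3, chr14:31019102-31019191, minus strand: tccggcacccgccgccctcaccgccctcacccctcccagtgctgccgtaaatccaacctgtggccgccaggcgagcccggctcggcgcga

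Over windows of 250 bases before to 50 after the start, 32 of the 38 genes had an entry; Tcof1, Npm1, Bop1, Fbl, Myc and Rrs1 are named only. CACGTG, which reads the same on both strands, was found in 4 of the 32 genes (12.5%), against 12.3% of 6492 tested genes and 8.09% of all 27025 genes with an entry. Within the 50 bases after the start CACGTG was found in 3 of 32 genes (9.38%), against 1.94% of tested genes and 1.28% of all genes. The variant CACGCG or CGCGTG was found in 14 of 32 genes (43.8%), against 22.1% of tested genes and 10.5% of all genes. In the 50 bases after the start it was found in 9 of 32 genes (28.1%), against 4.56% of tested genes and 2.16% of all genes. The whole window held the variant in 7 of 17 genes that fell at 24 h and 7 of 15 other genes of the list. The 50 bases after the start held it in 6 of 17 (35.3%) and 3 of 15 (20%). The 15 include Dkc1 and Nob1, which were not tested for expression and did not hold the variant. These shares were not tested against each other. CGGAAG or CTTCCG, the core letters of ETS sites, a motif chosen after the sequences had been seen, was found in 18 of 32 genes (56.2%), against 37.9% of tested genes and 18.8% of all genes. For the 50 bases after the start the count was 8 of 32 (25%), against 10.9% of tested genes and 4.96% of all genes. CACGCG and CGCGTG can share their inner letters and were counted together, both strands were searched, and a gene with several starts was counted once if any start had a match. The windows of the 32 genes were 56.7% G and C in the median, those of tested genes 61.3% and those of all genes 52.8%. A match is a string of letters and no evidence of binding.

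At 24 h, 18 of the 36 genes had fallen and none had risen relative to undifferentiated cells (limma, adjusted p under 0.05 over all 7909 genes). Among all tested genes 19.4% (1533) fell and 12.7% (1003) rose at that threshold. With each array centred on its median, which moved the median of all genes at 24 h to 0.085, 1110 genes were lower and 1431 higher, and 13 of the 36 genes were lower. With quantile normalisation 1316 were lower and 1582 higher, and 14 of the 36 were lower. The genes that fell span most steps of ribosome making, with Nop58, Nhp2 and Noc2l falling furthest, to between 0.341 and 0.483 times the undifferentiated level. At 12 h, 5 genes fell (Gnl3, Nop56, Gar1, Polr1c and Wdr12) and none rose, beside 4.56% of all tested genes lower and 3.3% higher. All 36 estimates were below 0 at 12 h and 34 of 36 at 24 h, and the median log2 differences were -0.50 at 12 h and -0.63 at 24 h, against 0.004 and -0.06 over all tested genes. In a culture, less RNA in each cell and fewer cells of a type that holds much of it cannot be told apart.

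**Figure D1:**
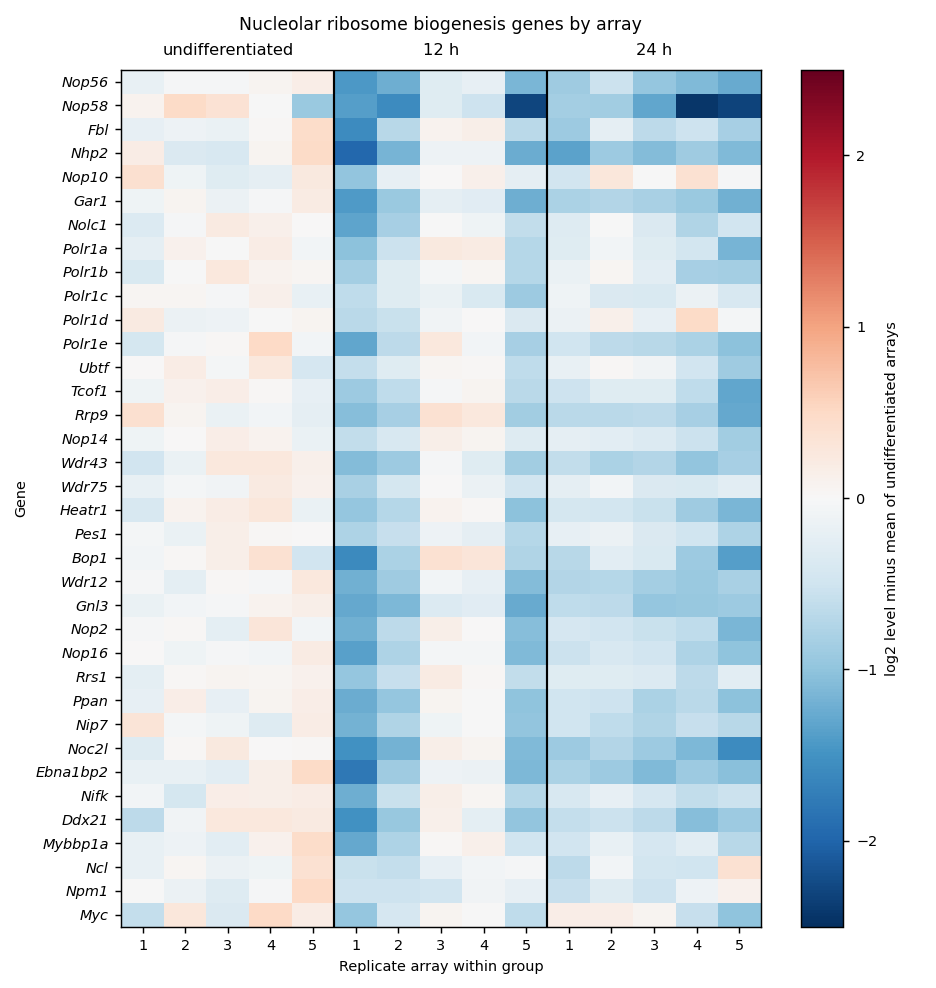
Heat map of 36 genes (rows, grouped by role) over 15 arrays (columns, in the order undifferentiated, 12 h and 24 h), coloured by the log2 level minus the mean of the 5 undifferentiated arrays. 12 h replicates 1, 2 and 5 and the 24 h arrays are mostly blue (lower), and 12 h replicates 3 and 4 are near white.

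The counts depend on single arrays. The median deviation of the 36 genes from the undifferentiated mean was -1.19, -0.71, -0.002, -0.012 and -0.79 in 12 h replicates 1 to 5, and -0.50, -0.34, -0.50, -0.66 and -0.90 in 24 h replicates 1 to 5, against -0.14, -0.03, -0.03, 0.08 and 0.12 in the undifferentiated arrays. Of the 36 genes, 36, 32, 5, 5 and 33 lay below their lowest undifferentiated array in the 12 h replicates, and 27, 20, 29, 30 and 32 in the 24 h replicates. Without 12 h replicates 3 and 4 the count at 12 h was 29 and the median -0.92, while 14.8% of all tested genes (1168) were lower and 9.51% higher. The 7 genes that did not pass then were Nop10, Polr1b, Ubtf, Nop14, Ncl, Npm1 and Myc. Setting aside the 12 h arrays with the highest medians favours a larger count. With those arrays averaged into 1 the count was 16, beside 7.19% (569) of all tested genes lower. The count at 12 h was 20 without replicate 3 and 14 without replicate 4, beside 8.21% and 6.8% of all tested genes lower. Leaving out 12 h replicate 1 gave 1, and leaving out replicate 2 or 5 gave 0, beside 2.81%, 1.33% and 1.3%. The 12 h count was 1 without undifferentiated replicate 2, 4 or 5, beside 2.39%, 1.72% and 1.66%. It was 3 without undifferentiated replicate 3 or 24 h replicate 3 or 4, beside 3.3%, 4.15% and 3.86%. Arrays at 24 h matter here since all arrays share an estimate of the spread. At 24 h the count was 11 without undifferentiated replicate 2 or 4 or 24 h replicate 4, beside 17%, 15.3% and 16%. It was 9 without 24 h replicate 5, beside 15.4%. With the suffix of the title code as a block, 16 genes were lower at 12 h and 24 at 24 h, and the share of all tested genes lower was larger too, at 10.7% (844) and 23.7% (1874). Without the 4 arrays of suffix C, 0 genes of the list were lower at 12 h and 1 at 24 h, with medians of -0.43 and -0.45, while 0.443% (35) and 7.74% (612) of all tested genes fell. Adjusted for the actin ratio, which runs higher in both differentiated groups, 0 genes of the list passed at either time, and the medians were -0.46 and -0.33. That adjustment left 0.632% (50) of all tested genes lower at 12 h and 0.101% (8) at 24 h. Taken suffix by suffix (A, B, C), the median difference was -0.82, -0.07 and -0.84 at 12 h and -0.45, -0.45 and -0.84 at 24 h, from 1 or 2 arrays a group. Numbers in the title codes fall into 6 runs of consecutive values, which hold up to 1 array of each group, and the labels do not say what a run is. With the runs as a block, an alternative chosen after seeing the data, 13 genes were lower at 12 h and 24 at 24 h, beside 8.74% (691) and 23.6% (1866) of all tested genes. In the 5 runs that hold a 12 h and an undifferentiated array, 36, 36, 19, 25 and 36 of the 36 genes were lower at 12 h, and in the 4 that hold a 24 h and an undifferentiated array 34, 28, 35 and 36 were lower at 24 h.

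No gene of the 36 differed between 24 h and 12 h (limma, adjusted p under 0.05), where 0.354% of all tested genes were lower and 0.0632% higher at 24 h. The median difference was -0.06, the same as over all tested genes. Without 12 h replicates 3 and 4 it was 0.32, against -0.023 over all tested genes. Then 1 of the 36 estimates was below 0, and no gene of the list passed, beside 0.0126% of all tested genes lower. With all arrays Polr1d alone reached an unadjusted p under 0.05, with a log2 difference of 0.38 ± 0.16 (standard error, limma adjusted p = 0.274). Both comparisons with undifferentiated cells use the same 5 undifferentiated arrays, so their values for a gene are not independent. Within suffix A the median was 0.45 and within suffix B -0.46, with opposite signs.

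**Figure D2:**
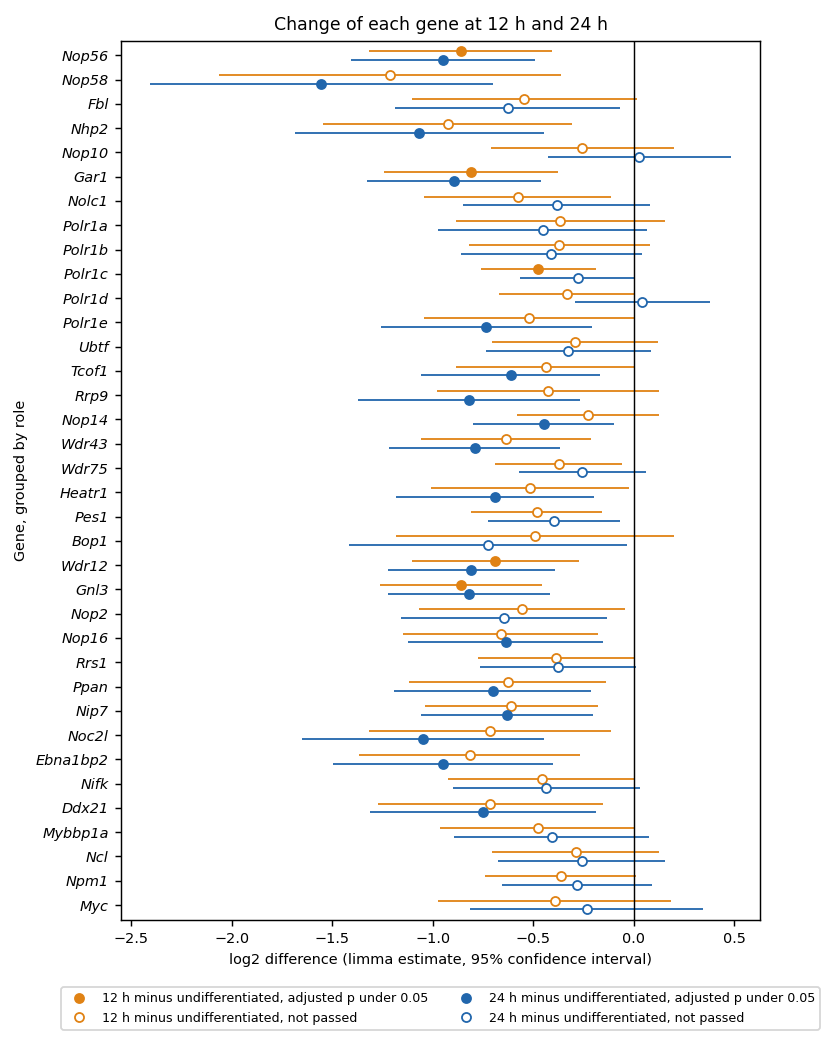
Log2 difference of each of the 36 genes from undifferentiated cells at 12 h (orange) and 24 h (blue), with 95% confidence intervals from limma and filled points where the adjusted p was under 0.05. At 12 h 5 points are filled and at 24 h 18, all below 0.

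In what follows, levels are log2 values, given for replicates 1 to 5 of each group in order, and differences are log2 differences ± the standard error of limma with p-values adjusted over all 7909 genes. Levels have an unknown offset and are compared only within a gene.

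Box C/D particles carry the proteins Nop56 and Nop58 and the methyltransferase fibrillarin, encoded by Fbl. Nop56 measured 5.33, 5.47, 5.47, 5.58 and 5.67 in undifferentiated cells, 4.07, 4.29, 5.19, 5.29 and 4.37 at 12 h, and 4.62, 4.96, 4.54, 4.40 and 4.24 at 24 h. All 10 differentiated arrays lay below all 5 undifferentiated ones, 12 h replicates 3 and 4 by the least. Nop56 fell by 0.86 ± 0.21 at 12 h (limma adjusted p = 0.02585) and by 0.95 ± 0.21 at 24 h (limma adjusted p = 0.00413). Without 12 h replicates 3 and 4 its difference at 12 h was -1.26 ± 0.16 (limma adjusted p = 0.0002849). Nop58 measured 4.45, 4.85, 4.72, 4.37 and 3.45 in undifferentiated cells, 2.98, 2.79, 4.08, 3.85 and 2.07 at 12 h, and 3.51, 3.50, 3.06, 1.94 and 2.06 at 24 h. Its groups overlap, because undifferentiated replicate 5 was far below the other undifferentiated arrays; that array has suffix C, as do the lowest arrays at 12 h and 24 h. Nop58 fell by 1.55 ± 0.40 at 24 h (limma adjusted p = 0.00842) to 0.341 times the undifferentiated level. At 12 h its difference of -1.21 ± 0.40 did not pass (limma adjusted p = 0.0714), though it did with the suffix as a block (limma adjusted p = 0.00174), with the runs of title codes as a block (limma adjusted p = 0.006341) and without 12 h replicates 3 and 4 (-1.75 ± 0.40, limma adjusted p = 0.006269). Within the runs each pair of arrays gave a Nop58 difference below 0, from -2.06 to -0.51 at 12 h in 5 runs and from -1.39 to -1.22 at 24 h in 4 runs. Fbl averaged 6.04 ± 0.27 at 24 h, while undifferentiated cells averaged 6.66 ± 0.27 (SD, n = 5 each), and the groups did not overlap. Its difference of -0.63 ± 0.26 missed the threshold (limma adjusted p = 0.0803). With the mean of its probe sets, Fbl passed at -0.83 ± 0.24 (limma adjusted p = 0.0185). In that setting 19 genes of the list were lower at 24 h, beside 20% of all tested genes. Of these 19, 15 were among the 18 lower in the main test, and Tcof1, Heatr1 and Nop16 no longer passed. At 12 h without replicates 3 and 4 Fbl was at -0.98 ± 0.23 (limma adjusted p = 0.007179).

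Box H/ACA particles are built on Nhp2, Nop10, Gar1 and dyskerin, and Nolc1 encodes Nopp140, a phosphoprotein that associates with both kinds of particle. Gar1 measured 4.53, 4.71, 4.50, 4.62 and 4.85 in undifferentiated cells, 3.23, 3.71, 4.42, 4.37 and 3.43 at 12 h, and 3.85, 3.92, 3.83, 3.71 and 3.44 at 24 h. Neither differentiated group overlapped the undifferentiated one. Gar1 fell by 0.81 ± 0.20 at 12 h (limma adjusted p = 0.0267) and by 0.90 ± 0.20 at 24 h (limma adjusted p = 0.00424). Nhp2 measured 6.62, 6.07, 6.03, 6.50 and 6.90 in undifferentiated cells, 4.46, 5.25, 6.30, 6.30 and 5.18 at 12 h, and 5.08, 5.52, 5.33, 5.54 and 5.32 at 24 h. The 24 h arrays lay in a narrow band below every undifferentiated array, while 12 h replicates 3 and 4 lay inside the undifferentiated range. Nhp2 fell by 1.07 ± 0.29 at 24 h (limma adjusted p = 0.0116). At 12 h its difference was -0.93 ± 0.29 (limma adjusted p = 0.0615). With 12 h replicates 3 and 4 set aside, the 12 h differences were -1.46 ± 0.22 for Nhp2 and -1.18 ± 0.15 for Gar1 (limma adjusted p = 0.0006935 and 0.0003123). Nop10 showed no call at either time, at -0.26 ± 0.21 at 12 h and 0.03 ± 0.21 at 24 h (limma adjusted p = 0.477 and 0.934). The other Nop10 probe set gave -0.66 and -0.67, so the probe sets of that gene disagreed. Nolc1 did not pass at 24 h (-0.38 ± 0.22, limma adjusted p = 0.193), and with the mean of its 3 probe sets it did (-0.66 ± 0.22, limma adjusted p = 0.0311).

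Of 7 genes for RNA polymerase I and its factors, 1 was lower at 12 h and 2 at 24 h, with median differences of -0.37 and -0.41. Beside these, 4.56% and 19.4% of all tested genes were lower. Without 12 h replicates 3 and 4, Polr1a, Polr1c, Polr1d, Polr1e and Tcof1 were lower at 12 h, beside 14.8%. Polr1e, which encodes the subunit PAF53, measured 2.22, 2.07, 2.03, 1.94 and 1.69 at 24 h, against 2.29, 2.69, 2.76, 3.22 and 2.66 in undifferentiated cells. The groups were separate by a small margin, and Polr1e fell by 0.73 ± 0.25 (limma adjusted p = 0.0325). Tcof1 encodes treacle, a nucleolar scaffold mutated in Treacher Collins syndrome. It measured 1.39, 1.60, 1.59, 1.26 and 0.60 at 24 h, against 1.80, 2.01, 2.07, 1.94 and 1.70 in undifferentiated cells, with no overlap. It fell by 0.61 ± 0.21 (limma adjusted p = 0.0359). With the mean of its probe sets Tcof1 did not pass at 24 h (-0.553 ± 0.222, limma adjusted p = 0.07071). Polr1c, a subunit shared with RNA polymerase III, fell at 12 h by 0.48 ± 0.14 (limma adjusted p = 0.0419) and was at -0.28 ± 0.14 at 24 h (limma adjusted p = 0.127). Its 12 h arrays measured 4.21, 4.54, 4.68, 4.45 and 3.94 and its undifferentiated arrays 4.89, 4.88, 4.80, 4.96 and 4.65, so the groups overlapped by 1 array. Without replicates 3 and 4 its 12 h difference was -0.61 ± 0.15 (limma adjusted p = 0.008624). Polr1d, the other shared subunit, was at -0.33 ± 0.16 at 12 h and 0.04 ± 0.16 at 24 h, and passed at neither time with all arrays. Without replicates 3 and 4 it passed at 12 h, at -0.528 ± 0.165 (limma adjusted p = 0.03052).

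The catalytic subunits and the main promoter factor of RNA polymerase I did not pass the test with all arrays and no block. With the runs of title codes as a block, Polr1a and Polr1b passed at 24 h and Ubtf did not. They were at -0.565 ± 0.192, -0.414 ± 0.14 and -0.321 ± 0.134 (limma adjusted p = 0.03797, 0.03691 and 0.07966). With the suffix as a block none of them passed at 24 h (limma adjusted p = 0.08675, 0.06844 and 0.1415). Without 12 h replicates 3 and 4, Polr1a passed at 12 h at -0.76 ± 0.22 (limma adjusted p = 0.01861), while Polr1b and Ubtf did not (limma adjusted p = 0.05499 and 0.0874). Polr1a, the largest subunit, was at -0.36 ± 0.24 at 12 h and -0.45 ± 0.24 at 24 h (limma adjusted p = 0.366 and 0.169). Polr1b, which with Polr1a forms the active site, was at -0.37 ± 0.21 and -0.41 ± 0.21 (limma adjusted p = 0.282 and 0.15). Ubtf encodes UBF, the protein that coats active ribosomal RNA genes. It measured 4.54, 4.71, 4.46, 4.79 and 4.10 in undifferentiated cells, 3.92, 4.21, 4.56, 4.54 and 3.89 at 12 h, and 4.34, 4.54, 4.43, 4.03 and 3.63 at 24 h. The groups overlapped widely, and the differences of -0.29 ± 0.19 and -0.33 ± 0.19 did not pass (limma adjusted p = 0.358 and 0.214). The 95% confidence interval of Ubtf at 24 h ran from -0.74 to 0.09, so a fall as large as that of Polr1e is inside it.

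Small subunit factors had no call at 12 h and 4 of 5 lower at 24 h, beside 4.56% and 19.4% of all tested genes. Without 12 h replicates 3 and 4, Rrp9, Wdr43, Wdr75 and Heatr1 were lower at 12 h and Nop14 was not, beside 14.8%. The genes that passed were at -0.926 ± 0.181, -0.951 ± 0.177, -0.578 ± 0.145 and -0.898 ± 0.2, in that order (limma adjusted p = 0.002569, 0.001942, 0.01061 and 0.005649). Wdr43 and Wdr75 encode WD repeat proteins of the early complex that joins transcription of the precursor to its processing, and Heatr1 encodes another of its parts. Wdr43 measured 3.45, 3.77, 4.20, 4.19 and 4.06 in undifferentiated cells, 2.85, 3.03, 3.90, 3.63 and 3.07 at 12 h, and 3.32, 3.14, 3.20, 2.94 and 3.10 at 24 h. All 24 h arrays lay below the lowest undifferentiated array, and Wdr43 fell by 0.79 ± 0.20 (limma adjusted p = 0.00752). Heatr1 averaged 3.00 ± 0.31 at 24 h, while undifferentiated cells averaged 3.69 ± 0.28 (SD, n = 5 each), and it fell by 0.69 ± 0.23 (limma adjusted p = 0.0321). With the mean of its probe sets Heatr1 did not pass at 24 h (-0.353 ± 0.139, limma adjusted p = 0.06614). Rrp9, a protein of the U3 particle, fell by 0.82 ± 0.26 (limma adjusted p = 0.025). Its 24 h arrays measured 1.85, 1.84, 1.86, 1.69 and 1.25, against 2.91, 2.59, 2.35, 2.44 and 2.28 in undifferentiated cells, while 12 h replicates 3 and 4 stood at 2.90 and 2.78. Nop14, whose yeast counterpart is needed for the small subunit, fell by 0.45 ± 0.17 (limma adjusted p = 0.0484). Wdr75 was at -0.26 ± 0.15 and did not pass (limma adjusted p = 0.2).

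**Figure D3:**
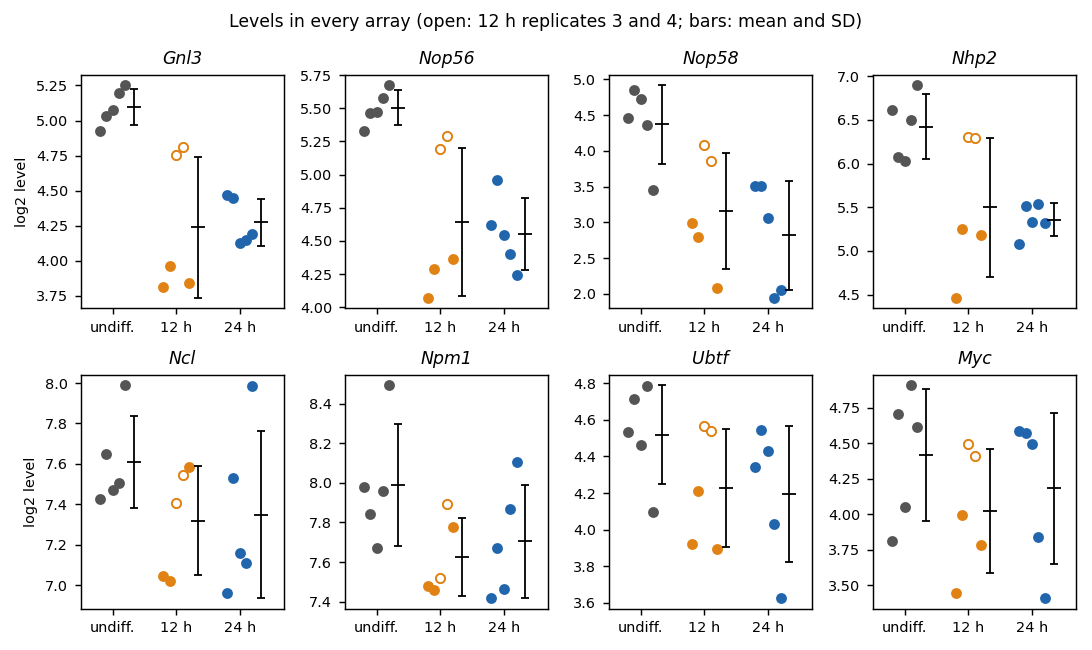
Log2 level of 8 genes in every array, in undifferentiated cells, at 12 h and at 24 h, with the mean and SD of each group as bars and 12 h replicates 3 and 4 as open points. The open points lie at the top of the 12 h group for Gnl3, Nop56, Nop58 and Nhp2, and Ncl, Npm1, Ubtf and Myc overlap between all groups.

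PeBoW, a complex of Pes1, Bop1 and Wdr12, acts in large subunit assembly. Wdr12 measured 3.42, 3.21, 3.48, 3.43 and 3.71 in undifferentiated cells, 2.25, 2.57, 3.37, 3.24 and 2.37 at 12 h, and 2.72, 2.74, 2.59, 2.52 and 2.63 at 24 h. At 24 h its arrays were close together and below all undifferentiated arrays. Wdr12 fell by 0.69 ± 0.20 at 12 h (limma adjusted p = 0.0419) and by 0.81 ± 0.20 at 24 h (limma adjusted p = 0.006). With the mean of its probe sets Wdr12 did not pass at 12 h (limma adjusted p = 0.1479) and did at 24 h (limma adjusted p = 0.03325). Its partners did not pass with all arrays and no block. Pes1 was at -0.48 ± 0.15 at 12 h and -0.40 ± 0.15 at 24 h (limma adjusted p = 0.0635 and 0.0613), and Bop1 at -0.49 ± 0.33 and -0.73 ± 0.33 (limma adjusted p = 0.36 and 0.1). With the suffix as a block both passed at 24 h, Pes1 at an adjusted p of 0.0282 and Bop1 at 0.0199 (limma). Without 12 h replicates 3 and 4 all 3 were lower at 12 h, beside 14.8% of all tested genes. Wdr12 was at -1.05 ± 0.15, Pes1 at -0.69 ± 0.15 and Bop1 at -1.05 ± 0.27 (limma adjusted p = 0.0004135, 0.005574 and 0.01194).

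Among the other 11 large subunit genes, 1 was lower at 12 h and 7 at 24 h, beside 4.56% and 19.4% of all tested genes. Without 12 h replicates 3 and 4 all 11 were lower at 12 h, beside 14.8%. Gnl3 encodes nucleostemin, a nucleolar GTPase known from neural stem cells and tumour cells. It measured 4.92, 5.03, 5.08, 5.19 and 5.25 in undifferentiated cells, 3.81, 3.96, 4.75, 4.81 and 3.84 at 12 h, and 4.47, 4.45, 4.13, 4.15 and 4.19 at 24 h. Every differentiated array was below every undifferentiated one. Gnl3 fell by 0.86 ± 0.19 at 12 h (limma adjusted p = 0.0165) and by 0.82 ± 0.19 at 24 h (limma adjusted p = 0.00462), to 0.552 and 0.566 times the undifferentiated level. Noc2l, whose yeast counterpart escorts early large subunit particles, measured 3.38, 3.73, 3.95, 3.71 and 3.74 in undifferentiated cells, 2.20, 2.53, 3.84, 3.77 and 2.60 at 12 h, and 2.79, 2.98, 2.80, 2.57 and 2.13 at 24 h. At 12 h its arrays fell into a low set and replicates 3 and 4 at the undifferentiated level. Noc2l fell by 1.05 ± 0.28 at 24 h (limma adjusted p = 0.0107), and at 12 h was at -0.72 ± 0.28 (limma adjusted p = 0.121). Without replicates 3 and 4 the 12 h differences were -1.22 ± 0.13 for Gnl3 and -1.26 ± 0.20 for Noc2l (limma adjusted p = 0.0001621 and 0.0007304).

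Ebna1bp2 encodes the counterpart of yeast Ebp2, a large subunit factor. It measured 4.72, 4.72, 4.65, 5.05 and 5.38 in undifferentiated cells, 3.11, 4.01, 4.78, 4.75 and 3.77 at 12 h, and 4.11, 4.00, 3.80, 4.00 and 3.86 at 24 h. The 24 h arrays spanned a narrow range below the undifferentiated ones, and Ebna1bp2 fell by 0.95 ± 0.26 (limma adjusted p = 0.011). At 12 h it passed without replicates 3 and 4, at -1.27 ± 0.21 (limma adjusted p = 0.0009534). Ddx21, a nucleolar RNA helicase, averaged 3.66 ± 0.23 at 24 h, and undifferentiated cells averaged 4.41 ± 0.40 (SD, n = 5 each). It fell by 0.75 ± 0.27 (limma adjusted p = 0.04), with overlap due to undifferentiated replicate 1 at 3.74. Ppan, Nip7 and Nop16, whose yeast counterparts act in large subunit assembly, fell by 0.70 ± 0.23, 0.63 ± 0.20 and 0.64 ± 0.23 (limma adjusted p = 0.0294, 0.0262 and 0.0427). None of these 3 overlapped the undifferentiated arrays at 24 h. With the mean of its probe sets Nop16 did not pass at 24 h (-0.364 ± 0.149, limma adjusted p = 0.07643).

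Nop2, a methyltransferase of the large subunit RNA, lay just outside the threshold at 24 h, at -0.65 ± 0.24 (limma adjusted p = 0.0508), with groups that did not overlap. Rrs1, a factor for the 5S particle in yeast, was at -0.38 ± 0.18 (limma adjusted p = 0.129), again with no overlap. Nifk, a partner of the proliferation antigen Ki-67, was at -0.44 ± 0.22, and Mybbp1a, a nucleolar protein that binds Myb, at -0.41 ± 0.23; neither passed (limma adjusted p = 0.14 and 0.185). Over the whole list, groups did not overlap and the differentiated arrays were lower for 3 genes at 12 h (Nop56, Gar1 and Gnl3) and 19 at 24 h, against 4.74% and 16% of all tested genes.

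Nucleolin and nucleophosmin, encoded by Ncl and Npm1, are the abundant RNA chaperones of the nucleolus. Ncl measured 7.43, 7.65, 7.47, 7.51 and 7.99 in undifferentiated cells, 7.04, 7.02, 7.41, 7.55 and 7.58 at 12 h, and 6.96, 7.53, 7.16, 7.11 and 7.99 at 24 h. The groups overlapped, with replicate 5 highest in each, and the differences of -0.29 ± 0.20 and -0.26 ± 0.20 did not pass (limma adjusted p = 0.372 and 0.329). The other 3 Ncl probe sets gave -0.64, -0.73 and -1.04 at 24 h, and their mean with the first passed at -0.67 ± 0.16 (limma adjusted p = 0.00647). Npm1 measured 7.98, 7.84, 7.67, 7.96 and 8.49 in undifferentiated cells, 7.48, 7.46, 7.52, 7.89 and 7.78 at 12 h, and 7.42, 7.67, 7.46, 7.87 and 8.10 at 24 h. Npm1 was at -0.36 ± 0.18 at 12 h and -0.28 ± 0.18 at 24 h (limma adjusted p = 0.203 and 0.235), and passed at 24 h with the suffix as a block (-0.38 ± 0.12, limma adjusted p = 0.0234).

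Myc measured 3.81, 4.71, 4.05, 4.91 and 4.61 in undifferentiated cells, 3.45, 3.99, 4.49, 4.41 and 3.78 at 12 h, and 4.59, 4.58, 4.50, 3.84 and 3.41 at 24 h. Its values were spread as widely within undifferentiated cells as across the groups. The differences of -0.39 ± 0.27 at 12 h and -0.24 ± 0.27 at 24 h did not pass (limma adjusted p = 0.383 and 0.542), and the 95% confidence interval at 24 h ran from -0.82 to 0.34. Without the 4 arrays of suffix C the difference at 24 h turned to 0.185. Among 11 tested genes of the Myc and Mxd network, 3 were lower and 2 higher at 24 h. Of all tested genes 19.4% were lower and 12.7% higher. Mycl, a relative of Myc, rose by 1.36 ± 0.28 and Mxi1, a repressor that competes for the same partner, by 1.22 ± 0.29 (limma adjusted p = 0.00247 and 0.00534), while Mxd3, another such repressor, fell by 0.96 ± 0.24 (limma adjusted p = 0.00701).

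Once the mean of each group was removed, the 36 genes still varied together over the 15 arrays. The median correlation between pairs of them was 0.746, against 0.072 between pairs of tested genes; the arrays share RNA quality, depth of signal and the suffixes. Nop56 and Gnl3 correlated at 0.943, and Myc had a median of 0.687 with the other 35 genes. The chaperones stood apart from the list, at a median of 0.175 for Ncl and 0.002 for Npm1. These values rest in part on 12 h replicates 3 and 4, which lie far from the other 12 h arrays. Over the other 13 arrays the median between pairs was 0.43, against 0.087 between pairs of tested genes, Nop56 and Gnl3 correlated at 0.747, and the medians were 0.611 for Myc, -0.12 for Ncl and -0.15 for Npm1. Of 20 genes with several probe sets above the filter, the sets had the same sign for 19 at 12 h and 17 at 24 h.

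**Figure D4:**
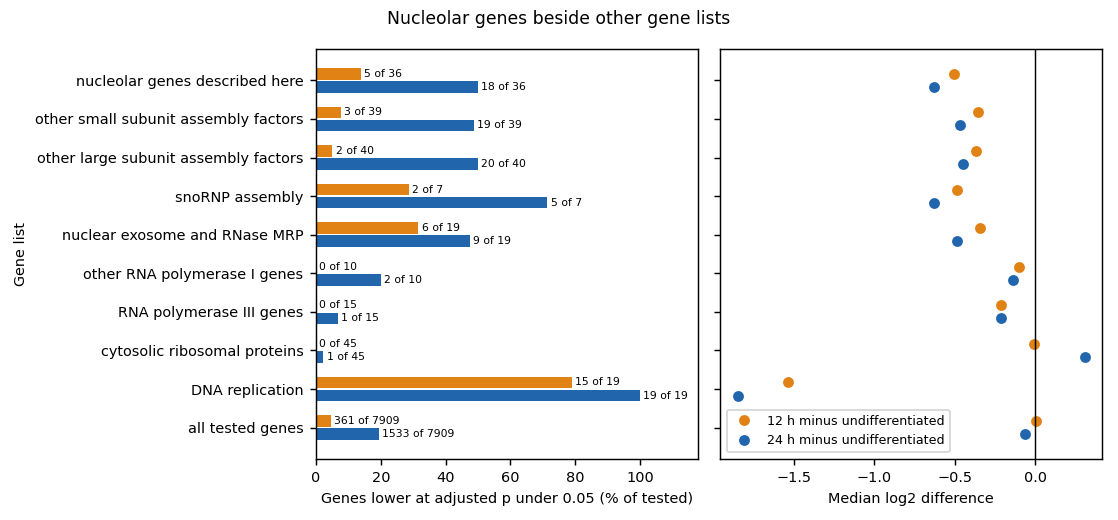
Share of tested genes lower at adjusted p under 0.05 (left, bars with counts) and median log2 difference (right, points) for the 36 nucleolar genes, 8 other gene lists and all tested genes, at 12 h (orange) and 24 h (blue). At 24 h the bars for both other assembly factor lists are close to that of the nucleolar genes, and the median of the ribosomal proteins lies above 0.

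Other genes of the pathway were counted from lists of its factors, beside 19.4% of all tested genes lower at 24 h; differences between lists were not tested. Of 39 other small subunit factors 19 were lower and 0 higher, with a median of -0.46, and Utp20 fell the furthest among those with the smallest p-values, by 1.22 ± 0.24 (limma adjusted p = 0.00192). Of 40 other large subunit factors 20 were lower and 0 higher, with a median of -0.45; Rrp15 fell by 1.12 ± 0.27 (limma adjusted p = 0.00545). The chaperones that load box C/D and H/ACA proteins onto their RNAs were lower for 5 of 7 genes, with Ruvbl2 down by 1.02 ± 0.28 (limma adjusted p = 0.0108) and Pih1d1 by 0.80 ± 0.13 (limma adjusted p = 0.000571). The nuclear exosome and RNase MRP, which trim and cut the precursor, had 9 of 19 genes lower, among them Exosc1 at -0.92 ± 0.19 (limma adjusted p = 0.00256). Other RNA polymerase I genes had 2 of 10 lower, and RNA polymerase III genes 1 lower and 1 higher of 15; Polr3gl was the one that rose, by 0.55 ± 0.14 (limma adjusted p = 0.00857). At 12 h the lower counts in these 6 lists were 3, 2, 2, 6, 0 and 0, beside 4.56% of all tested genes, so the shares of both assembly factor lists (3 of 39 and 2 of 40) were near that background. Without 12 h replicates 3 and 4 they were 25, 24, 5, 11, 4 and 3, beside 14.8%.

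Few genes for the proteins of the finished ribosome passed the test. Of 45 tested cytosolic ribosomal protein genes 1 was lower at 24 h and 0 higher, beside 19.4% lower and 12.7% higher among all tested genes. Of the 45 estimates 5 were below 0, and the median was 0.31. Rps25, the exception, fell by 0.85 ± 0.21 (limma adjusted p = 0.00597). The median deviation of the ribosomal protein genes was 0.73 and 0.94 in the 24 h arrays of suffix C, and -0.27, 0.23 and -0.01 in the other 24 h arrays. It was 0.54 in the undifferentiated array of suffix C.

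Genes of DNA replication, which mark dividing cells, fell by more than the nucleolar genes, with medians of -1.54 at 12 h and -1.85 at 24 h. Beside 4.56% and 19.4% of all tested genes, 15 of 19 were lower at 12 h and all 19 at 24 h. Without 12 h replicates 3 and 4, where 14.8% of all tested genes were lower at 12 h, all 19 were, with a median of -2.01. Their median deviation was -2.46, -1.63, -0.55, -0.59 and -1.82 in 12 h replicates 1 to 5 and -2.72, -1.004, -1.20, -2.12 and -2.34 in 24 h replicates 1 to 5, against -0.35, 0.003, 0.19, -0.004 and 0.30 in undifferentiated replicates 1 to 5. 12 h replicates 3 and 4, where the nucleolar genes stood at the undifferentiated level, had the smallest falls of replication genes as well, but lay below every undifferentiated array. The part of cell division in the nucleolar result was not tested.

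**Figure D5:**
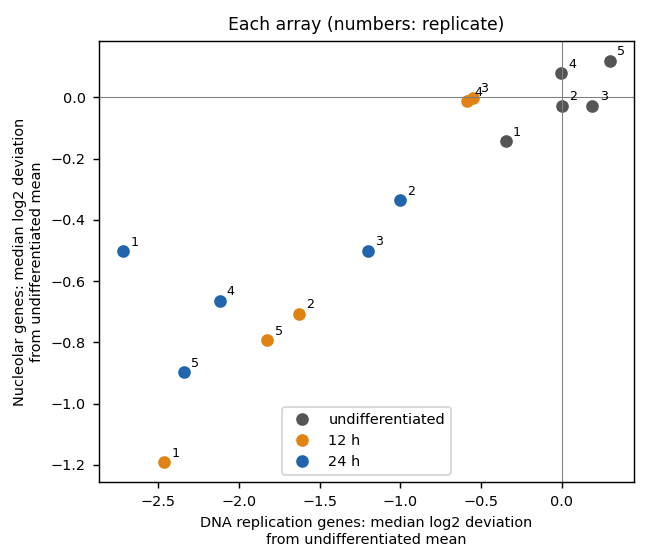
Median log2 deviation of the 36 nucleolar genes (y axis) and of 19 DNA replication genes (x axis) from the undifferentiated mean, 1 point per array, numbered by replicate. 12 h replicates 3 and 4 lie near 0 on the y axis and at -0.55 and -0.59 on the x axis, and 24 h replicate 1 has the lowest replication value, at -2.72, with a nucleolar value of -0.50.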

How the data were processed

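Total RNA of 15 samples was labelled with biotin and hybridised to 1 Affymetrix array each, per the labels' protocols. The deposited table holds 1 value for each of 22690 probe sets and array. The submitters' processing notes name MAS5, with no settings, scaling or log base. Hybridisation spike-ins rose by 1.02 ± 0.0541 (SD, 15 arrays) per log10 unit of concentration over 18 probe sets, and the authors' deposited values were therefore taken as log10 and multiplied by 3.32 to give log2 values. Array medians ran from 0.287 to 0.453 on the log10 scale, and no further normalisation was applied. Precision is limited by the number of arrays.

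Probe sets with 1 gene symbol (20380) were used, with the highest mean per gene, and a gene was tested where that mean exceeded the 40th percentile of probe sets (0.512 as log2). The test was limma 3.58.1 in R 4.3.3: 1 fit over 3 groups, a variance trend, and Benjamini-Hochberg adjustment. Probe sets whose names end in s_at or x_at may detect several transcripts; those used for Nop56, Fbl, Nhp2, Gar1, Polr1c, Polr1e and Wdr43 carry such names. All 38 genes were to be named whatever their result, and of each other list up to 4 genes with the smallest p at 24 h. The genes, lists and tests were chosen with earlier results of these data known. Arrays of the same suffix were also compared with each other, the suffix and, after seeing the data, runs of consecutive title codes were used as blocks, and alternatives changed the labels, filter, pseudocount, normalisation, probe set choice, variance model and samples. In simulated data for 24 h, 200 of 7909 genes were changed. The fit called 33.2%, 77.8% and 98% of genes changed 1.5-, 2- and 4-fold, with 4.7% false calls. Noise was drawn for each gene on its own, with the same spread in each group. Genes of the real data vary together and more of them were called, so these rates may not hold there.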

Additional observations from a re-analysis of the deposited data

Results flagged for a closer look

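Levels of the 36 genes in each group of 5 arrays were searched for a highest or lowest array whose gap to its neighbour took up more than 0.71 of the group's range. Of 108 such tests 4 met this, where chance gives 5.4. At 24 h, replicate 5 was low for Rrp9, at 1.25 on the log2 scale against 1.69 to 1.86 in the other 24 h arrays, and for Nop2, at 2.08 against 2.59 to 2.80. Replicate 4 at 24 h was low for Rrs1, at 4.78 against 5.10 to 5.17, and so was undifferentiated replicate 1, at 5.19 against 5.47 to 5.55. Both 24 h arrays carry suffix C and have the highest actin 3' to 5' ratios of all arrays, 2.95 in replicate 4 and 3.21 in replicate 5; the part of RNA integrity in these values was not tested.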

How the results depend on the processing

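The comparisons with undifferentiated cells rest on the title groups. By file codes 0 genes of the 36 were lower at 12 h and 0 at 24 h, with medians of -0.0525 and 0.0392. Under that grouping the 12 h difference turned positive for Fbl (0.098), Nop10 (0.082), Polr1c (0.034), Polr1d (0.039), Polr1e (0.131), Wdr75 (0.088), Nop2 (0.001), Ppan (0.012), Ebna1bp2 (0.107), Ddx21 (0.001), Mybbp1a (0.096), Ncl (0.046), Npm1 (0.084) and Myc (0.203). At 24 h it did so for Fbl (0.208), Nhp2 (0.076), Gar1 (0.002), Nolc1 (0.216), Polr1a (0.003), Polr1b (0.041), Polr1c (0.031), Polr1e (0.094), Wdr43 (0.038), Wdr75 (0.232), Pes1 (0.008), Wdr12 (0.037), Gnl3 (0.072), Nop2 (0.015), Nop16 (0.026), Rrs1 (0.176), Ppan (0.131), Ebna1bp2 (0.22), Nifk (0.136), Ddx21 (0.224), Mybbp1a (0.234), Ncl (0.245), Npm1 (0.143) and Myc (0.293).

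The count at 12 h was 5 as reported, 3 with no filter, 9 with quantile normalisation, 8 with median centring, 1 with only the 2 groups compared, 16 with the suffix as a block, 0 without suffix C, 0 with the actin ratio as a covariate, 16 with 12 h replicates 3 and 4 averaged and 29 without both, where the median was -0.924. In that order 4.56%, 2.65%, 6.16%, 5.9%, 2.98%, 10.7%, 0.443%, 0.632%, 7.19% and 14.8% of all tested genes were lower at 12 h. The count at 24 h was 1 without suffix C (median -0.452) and 0 with the actin ratio (median -0.328). Beside these, 7.74% and 0.101% of all tested genes were lower. Leaving out 1 array at a time gave 0 to 20 genes at 12 h and 9 to 22 at 24 h, with medians of -0.683 to -0.359 and -0.69 to -0.534. The share of all tested genes lower then ran from 1.3% to 8.21% at 12 h and from 15.3% to 21.4% at 24 h. The median at 24 h was -0.452, -0.454 and -0.835 within suffixes A, B and C, and at 12 h it was -0.0673 within B. Between 24 h and 12 h it was 0.453 within A and -0.462 within B, and -0.228 to 0.0772 when 1 array was left out. Without 12 h replicates 3 and 4 the median between 24 h and 12 h was 0.32. No gene of the 36 passed between 24 h and 12 h under any alternative, and none was called higher in any comparison. The cause of these shifts was not tested.

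Some genes changed sign. In the main test at 24 h Nop10 and Polr1d were near 0, at 0.027 and 0.041. Ubtf, Polr1a, Polr1c and Myc were further from it, at -0.326, -0.454, -0.279 and -0.235. At 24 h Nop10 was at -0.018 with quantile normalisation, -0.321 with the mean of probe sets, -0.041 with the suffix as a block, -0.01 without suffix C and -0.264 with the actin ratio, and it ran from -0.063 to 0.154 when 1 array was left out. Polr1d was at -0.069 with the mean of probe sets, -0.009 with the suffix as a block, -0.061 without suffix C, -0.09 with the actin ratio and -0.07 to 0.104 when 1 array was left out. With the actin ratio Ubtf was at 0.008 at 12 h and 0.288 at 24 h, and at 24 h Polr1a at 0.057, Polr1c at 0.033 and Myc at 0.546; Myc was at 0.185 without suffix C. The labels give no replicate numbers to pair samples by. With the runs of consecutive title codes as a block, chosen after seeing the data, 13 genes were lower at 12 h and 24 at 24 h, and at 24 h Nop10 was at -0.104 and Polr1d at -0.084; no other gene of the 36 changed sign against undifferentiated cells.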
